A study of Oryza sativa with 6 samples.

Results

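Leaf RNA of the *Dap1* mutant and of its wild type was compared at 29 genes of lipid and fatty acid metabolism, out of 925 genes in the deposited table. The members were chosen by annotation: a gene was taken when its KEGG class was lipid metabolism or when a GO process term contained lipid, fatty acid or wax. The cytochrome P450 gene *OsCYP96B4*, genes that also belong to the KEGG classes of carbohydrate, secondary metabolite or terpenoid metabolism, and genes with 3 counts or fewer in all libraries of a group were left out. Of 36 lipid-annotated genes, 6 were removed for another KEGG class and 1 for its counts, while *OsCYP96B4* carried no lipid annotation in the table. Among the 29 members, 9 had both the KEGG class and a GO term, 7 the KEGG class only and 13 the GO term only.

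The wild type (WT) was the *japonica* rice variety Zhonghua11 (ZH11), genotype label wildtype. *Dap1* (genotype label Dap) was a mutant of ZH11 with a T-DNA inserted upstream of *OsWUS*, a homeobox gene of shoot meristems. It was 1 insertion line, its plants were heterozygous as no homozygous plant was recovered, and no other line was analysed here. Fresh leaves were taken at the booting stage from field-grown plants, with 3 biological replicates per genotype and 1 library each. *Dap1* headed later than WT, so that genotype cannot be told apart from the day, hour or weather of sampling in any comparison below. *OsWUS* (*Os04g0663600*), which carries the symbol WOX1 in the table, had 0 counts in each WT library and 77, 100 and 105 counts in the *Dap1* libraries, so the libraries matched their labels.

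Plants make fatty acids on acyl carrier proteins in plastids, with a smaller pathway in mitochondria. The acyl chains are either joined to glycerol, forming membrane and storage lipids, or exported and lengthened in the endoplasmic reticulum into the precursors of wax and cutin, which seal the leaf surface. Lipases release fatty acids again, oxygenases turn some of them into oxylipins such as the precursors of jasmonate, and small transfer proteins bind lipids and move them between membranes or towards the cuticle. The members were therefore ordered as fatty acid synthesis (4 genes), elongation, wax and cutin (5), glycerolipid and phospholipid synthesis (5), lipid hydrolysis (6), oxylipin formation (2), lipid transfer and binding (6) and 1 gene with a lipid term among many others.

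The table lists only genes that the authors had called between the genotypes, with a false discovery rate below 0.05 and more than 1 log2 unit of change. Every member was thus selected on the same contrast that is described here, and the count rule used the same libraries. The differences between *Dap1* and WT are accordingly given as a description, without p-values. Values are given on the scale of counts, which are fragments per gene, or of FPKM, counts relative to the length of the transcript and to the mapped fragments of the library, on which genes can be compared with each other. Log2 fold changes are those of *Dap1* against WT in edgeR's fit to the counts of all 925 genes, with their standard errors (SE). A gene is said to be called when it passed an adjusted p-value of 0.05 and an absolute log2 fold change of 1 in that fit. In whole leaves, fewer cells of a type and less RNA per cell cannot be told apart. The SD and ranges cover the spread between the 3 libraries of a genotype. The SE comes from a fit whose dispersion drew on all 925 genes, so it is not the spread of a gene's own libraries alone.

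Of the 29 lipid genes, 21 were called higher and 8 lower in *Dap1* leaves. Over all 925 listed genes, 56.9% were called higher, 41.7% lower and 98.6% in either direction, so that a call of a member says nothing particular about it. With TMM factors over the listed genes, 12 members were called higher and 8 lower, where 37.0% of all listed genes were called higher and 42.5% lower. With DESeq2's size factors over the same genes, 10 members were called higher and 8 lower, where the shares of all listed genes were 27.1% and 42.5%. The median log2 fold change was 1.39 over the members and 1.15 over the 925 genes. It was 1.07 over the 16 members in KEGG lipid metabolism, below that of all listed genes, and 1.47 over the 13 known by GO term only. Scaled to library size, the WT and *Dap1* libraries did not overlap for 28 members, against 99.0% of all listed genes, and the member with overlapping libraries was the alpha-dioxygenase gene *PIOX*. The genes of fatty acid synthesis, of elongation, wax and cutin, and of lipid transfer were all higher in *Dap1*, 15 genes in these 3 roles. Both oxylipin genes were lower, and the genes of hydrolysis and of glycerolipid synthesis went in both directions.

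**Figure D1:**
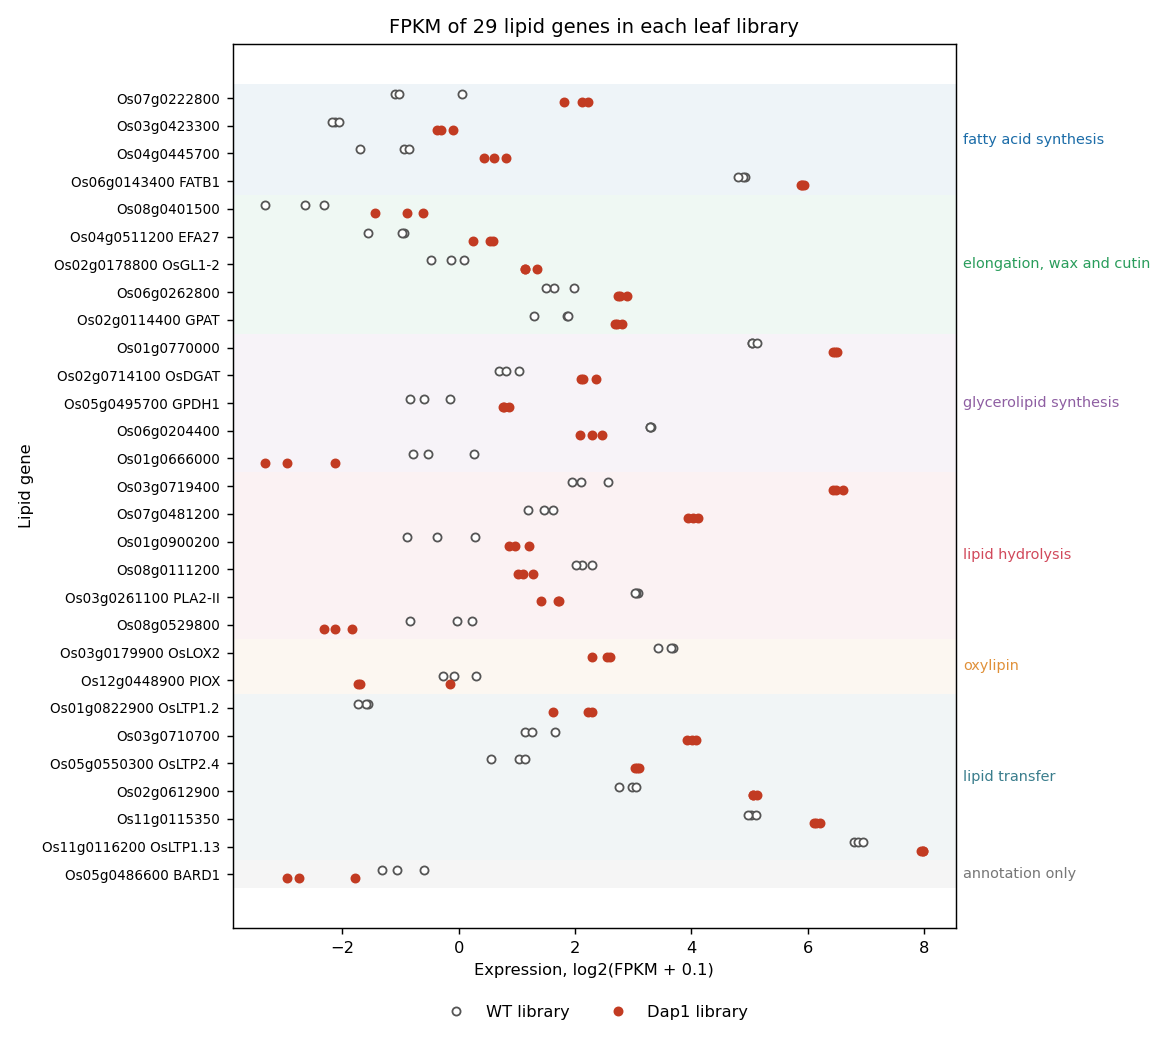
Expression of the 29 lipid genes in each library, as log2(FPKM + 0.1) on the horizontal axis, with genes grouped by role on the vertical axis. Open circles are the 3 WT libraries and filled circles the 3 *Dap1* libraries. For *PIOX* 1 *Dap1* library lies among the WT libraries, and for the other 28 genes the groups are apart.

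Levels ranged widely among the members. By mean FPKM they ran from 0.0533 (*Os08g0401500*) to 117 (*OsLTP1.13*) in WT, and from 0.0533 (*Os01g0666000*) to 250.1 (*OsLTP1.13*) in *Dap1*. The lipid transfer protein gene *OsLTP1.13* alone held 41.7% of the summed FPKM of the 29 genes in WT and 36.5% in *Dap1*. In WT, 13 members had a mean FPKM under 1, in *Dap1* 6 members did, and 7 members passed from under 1 in WT to 1 or more in *Dap1*. Of all 925 listed genes, 401 had a mean FPKM under 1 in WT and 319 in *Dap1*. The summed FPKM of the members lay between 274 and 283 in the WT libraries and between 678 and 691 in the *Dap1* libraries. The sum over all listed genes rose too, from a mean FPKM of 11275 in WT to 24574 in *Dap1*. The median coefficient of variation of the scaled counts between replicates was 20.4% in WT and 9.82% in *Dap1*. Over all listed genes these medians were closer, at 17.3% and 13.9%.

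Within fatty acid synthesis, *FATB1* (*Os06g0143400*) was the only abundant gene. It encodes an acyl-ACP thioesterase, the enzyme that releases mainly saturated fatty acids from acyl carrier protein at the end of synthesis in the plastid. Its FPKM was 30.18, 29.29 and 27.84 across WT replicates and 59.29, 60.73 and 58.53 across *Dap1* replicates. The means of 29.1 ± 1.18 and 59.5 ± 1.12 (SD, n = 3) correspond to a log2 fold change of 1.03 (SE 0.040), at the edge of the selection. Without WT replicate 3 it was 0.9996, inside the threshold of 1.

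The other genes of this role were scarce in WT and higher in *Dap1* by larger factors. The acyl carrier protein-like gene *Os07g0222800*, whose product holds the growing acyl chain, entered by GO terms only. Its GO components are the mitochondrion and the cytosol, and KEGG places it in oxidative phosphorylation. It had 5, 10 and 5 counts in WT leaves but 56, 56 and 46 in *Dap1* leaves. The WT library with 10 counts was also the shallowest of the 6. Its log2 fold change of 2.92 (SE 0.34) was the largest of the role, or 7.59-fold. A 3-oxoacyl-ACP synthase gene, *Os04g0445700*, is also placed in the mitochondrion, and its enzyme class adds carbon units to the acyl chain. It had 16, 6 and 16 counts in WT compared with 55, 52 and 44 in *Dap1*, with a log2 fold change of 1.96 (SE 0.30). For the stearoyl-ACP desaturase gene *Os03g0423300*, whose enzyme class puts the first double bond into stearic acid in the plastid, counts were 4, 3 and 4 across WT replicates and 18, 24 and 21 across *Dap1* replicates. Its log2 fold change was 2.45 (SE 0.46), and its mean FPKM stayed under 1 in both genotypes, at 0.130 ± 0.010 and 0.737 ± 0.083 (SD, n = 3).

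All 5 genes of elongation, wax and cutin were higher in *Dap1*, with log2 fold changes from 1.05 to 2.97. The direction held under each scaling. Called higher were 3 of the 5 with TMM factors, 1 with DESeq2's factors and 0 with limma on log2(FPKM + 1). Over all listed genes the shares called higher were 37.0%, 27.1% and 29.8%, and those called lower 42.5%, 42.5% and 12.8%. Highest in level was *Os06g0262800*, similar to CUT1, the condensing enzyme that lengthens very-long-chain fatty acids for wax in *Arabidopsis*. It had an FPKM of 3.02, 2.72 and 3.83 in WT leaves but 6.55, 6.69 and 7.36 in *Dap1* leaves, and a log2 fold change of 1.10 (SE 0.14). At a similar level, *GPAT* (*Os02g0114400*) is similar to glycerol-3-phosphate acyltransferase 8, which makes acylglycerols for cutin in *Arabidopsis*. Its FPKM was 3.52, 2.35 and 3.56 in WT compared with 6.89, 6.35 and 6.50 in *Dap1*. The log2 fold change was 1.05 (SE 0.20) and fell to 0.89 without WT replicate 2, the lowest library, so that its call rested on that library.

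The wax gene *OsGL1-2* (*Os02g0178800*), a homolog of maize Glossy1 that acts in making cuticular wax, had 37, 22 and 40 counts across WT replicates and 83, 104 and 92 across *Dap1* replicates. This gave a log2 fold change of 1.47 (SE 0.21), or 2.76-fold. *EFA27* (*Os04g0511200*) encodes an abscisic acid-induced EF-hand protein which KEGG places in cutin, suberin and wax biosynthesis as a peroxygenase and GO on the lipid droplet. Its counts were 9, 4 and 8 in WT leaves but 26, 27 and 22 in *Dap1* leaves, with a log2 fold change of 1.80 (SE 0.39). *Os08g0401500* is similar to HOTHEAD, an oxidoreductase of cutin monomer formation in *Arabidopsis*. With 0, 2 and 4 counts in WT compared with 10, 18 and 23 in *Dap1* it was the scarcest member in WT. Its log2 fold change of 2.97 (SE 0.63) was 2.34 without WT replicate 1 and 3.88 without WT replicate 3, the ends of its range over single libraries left out.

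The glycerolipid role held 3 genes higher and 2 lower in *Dap1*. The higher ones were *GPDH1*, *OsDGAT* and *Os01g0770000*, with log2 fold changes of 1.39 (SE 0.24), 1.39 (SE 0.18) and 1.40 (SE 0.037). With TMM or DESeq2's factors 0 of these 3 were still called higher, where 37.0% and 27.1% of all listed genes were. *GPDH1* (*Os05g0495700*) encodes a glycerol-3-phosphate dehydrogenase, which interconverts dihydroxyacetone phosphate and the glycerol backbone, and had 24, 17 and 33 counts across WT replicates and 65, 65 and 68 across *Dap1* replicates. *OsDGAT* (*Os02g0714100*), of the diacylglycerol acyltransferase family that completes storage oil, had 43, 37 and 51 counts in WT leaves but 123, 112 and 117 in *Dap1* leaves. *Os01g0770000* is described by a domain of the protein family UPF0089, listed as uncharacterised, and carries GO terms for diacylglycerol acyltransferase and wax ester formation. Ranking number 2 among the members in WT and number 3 in *Dap1*, it had an FPKM of 32.66, 32.77 and 34.76 in WT compared with 90.14, 86.15 and 88.71 in *Dap1*. With at least 1049 counts in every library *Os01g0770000* had the smallest standard error of these, and its log2 fold change stayed between 1.39 and 1.43 when each library was left out.

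Lower in *Dap1* were the other glycerolipid genes, and both kept their call with TMM and DESeq2's factors. These factors shifted log2 fold changes downward, by a median of -0.45 and -0.85, so a lower gene moved further from the threshold. With either set 42.5% of all listed genes were called lower, so the kept calls say nothing particular about these genes. *Os06g0204400*, similar to aminoalcoholphosphotransferase, the enzyme that attaches choline or ethanolamine to diacylglycerol, had an FPKM of 9.64, 9.76 and 9.70 in WT. The *Dap1* libraries had 4.12, 4.79 and 5.44, a log2 fold change of -1.02 (SE 0.086) that became -0.93 without *Dap1* replicate 1, inside the threshold. The fall was larger for *Os01g0666000*, similar to lipid phosphate phosphatase 2, an enzyme that converts phosphatidic acid to diacylglycerol. It had 35, 12 and 17 counts across WT replicates and 0, 4 and 1 across *Dap1* replicates. No *Dap1* library reached the lowest WT library, and the log2 fold change was -3.59 (SE 0.64). It was -5.10 without *Dap1* replicate 2 and -3.08 without *Dap1* replicate 1, the ends of its range over single libraries left out.

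**Figure D2:**
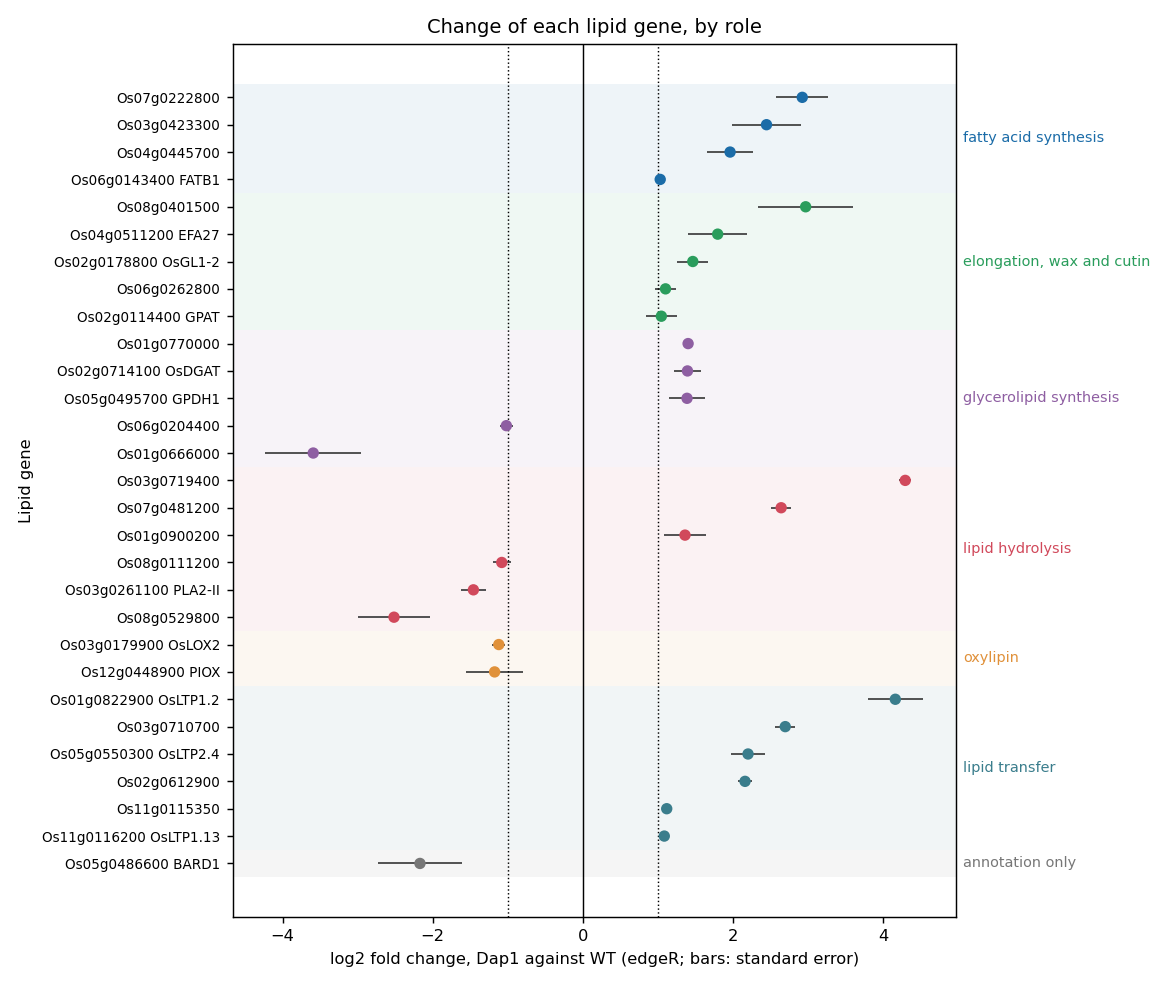
Log2 fold change of *Dap1* against WT (horizontal axis, from edgeR) for each of the 29 lipid genes, grouped by role on the vertical axis. Points are the estimates, bars the standard errors and dotted lines the threshold of 1 in each direction. The values run from -3.59 (*Os01g0666000*) to 4.30 (*Os03g0719400*).

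Lipid hydrolysis held the largest rise of all 29 members. *Os03g0719400*, an alpha/beta hydrolase that KEGG places in glycerolipid metabolism as an acylglycerol lipase, had 203, 114 and 120 counts in WT leaves but 2696, 2828 and 3238 in *Dap1* leaves. Its FPKM was 5.79, 4.17 and 3.75 in WT compared with 89.28, 86.28 and 96.61 in *Dap1*. In scaled counts the lowest *Dap1* library lay 14.9-fold above the highest WT library, and the log2 fold change was 4.30 (SE 0.079), or 19.6-fold. By mean FPKM it ranked number 9 among the members in WT and number 2, after *OsLTP1.13*, in *Dap1*. It ranked number 87 in log2 fold change among the 925 listed genes.

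*Os07g0481200*, described as similar to a calmodulin-binding heat-shock protein with the GO function of a hydrolase, had 47, 50 and 52 counts across WT replicates and 299, 306 and 350 across *Dap1* replicates. Its log2 fold change was 2.64 (SE 0.14). The class 3 lipase gene *Os01g0900200*, of a family that cleaves triglycerides, had 36, 17 and 13 counts in WT leaves but 48, 56 and 69 in *Dap1* leaves. Its WT libraries were spread, and the log2 fold change of 1.36 (SE 0.28) moved between 1.09 and 1.81 with single libraries left out.

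The remaining hydrolases were lower in *Dap1*. *PLA2-II* (*Os03g0261100*), a phospholipase A2 that frees a fatty acid from phospholipids and is placed in the extracellular region, was the steadiest of these in WT. Its FPKM was 8.39, 8.21 and 8.09 in WT compared with 2.58, 3.19 and 3.18 in *Dap1*, a log2 fold change of -1.46 (SE 0.17). *Os08g0111200* belongs to the GBA2 type of glucosylceramidases, which split glucose from a sphingolipid. It had 259, 212 and 230 counts across WT replicates and 105, 115 and 119 across *Dap1* replicates, with a log2 fold change of -1.08 (SE 0.12). *Os08g0529800*, a lipase that the table annotates with steroid biosynthesis and with defence against insects, had 15, 27 and 26 counts in WT leaves but 5, 4 and 3 in *Dap1* leaves. The groups were apart although the counts were low, and the log2 fold change was -2.51 (SE 0.48).

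Both genes of the oxylipin role were lower. This does not hold for every oxygenase among the members, since the peroxygenase gene *EFA27*, ordered under wax and cutin, was higher. *OsLOX2* (*Os03g0179900*) encodes a lipoxygenase of linoleic and linolenic acid with the GO function of oxygenation at carbon 13, the first reaction of the jasmonate pathway. Its FPKM was 10.65, 12.77 and 12.51 in WT compared with 5.73, 4.81 and 5.96 in *Dap1*, with a log2 fold change of -1.12 (SE 0.085). *PIOX* (*Os12g0448900*) encodes an alpha-dioxygenase, which oxygenates fatty acids next to the carboxyl end. It had 34, 41 and 36 counts across WT replicates and 32, 9 and 9 across *Dap1* replicates. *Dap1* replicate 1 thus stood at the level of WT, and the fall came from the other *Dap1* libraries. The log2 fold change was -1.17 (SE 0.38). It became -2.11 without *Dap1* replicate 1, -0.86 and -0.85 without *Dap1* replicates 2 and 3, and -0.99 without WT replicate 2, the last 3 inside the threshold.

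**Figure D3:**
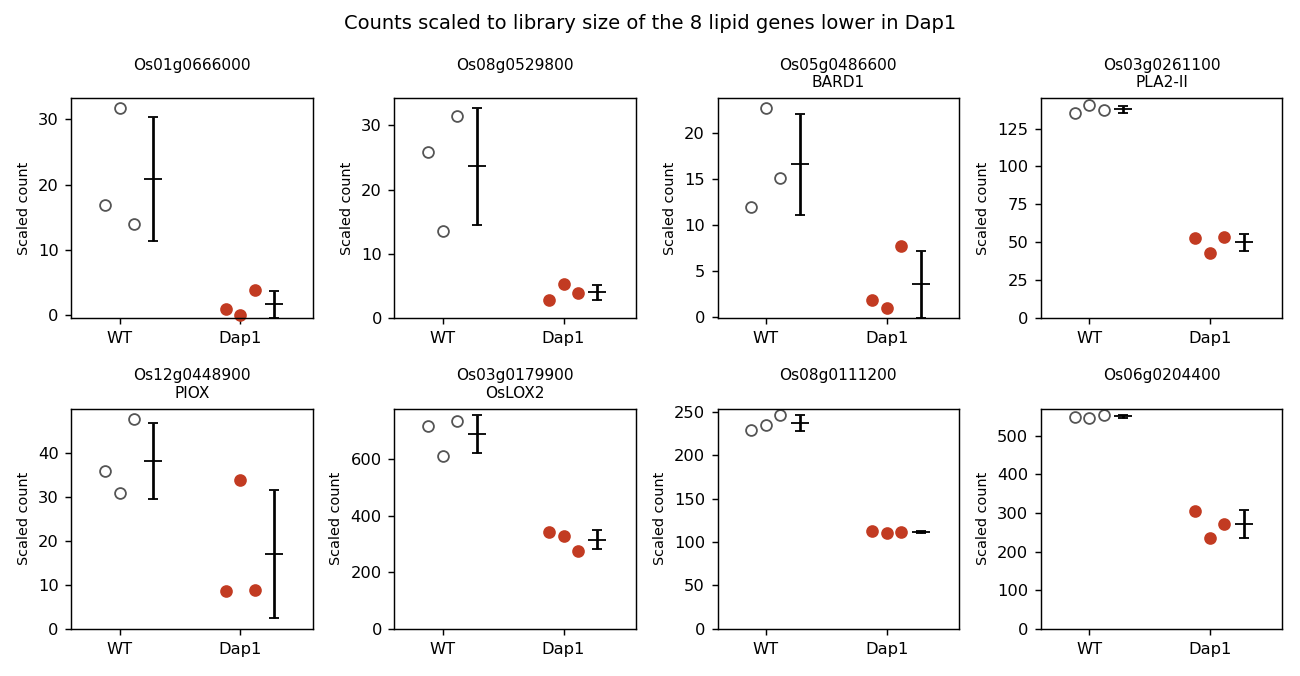
Counts scaled to library size (vertical axis, from 0 or just below, a separate scale in each panel) of the 8 lipid genes that were lower in *Dap1*. Open circles are WT libraries, filled circles *Dap1* libraries, and the bar beside them the mean with the SD over 3 libraries. *PIOX* has 1 *Dap1* library among the WT libraries, whereas the other genes have none.

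All 6 genes of lipid transfer and binding were higher, 4 of them encoding nonspecific lipid transfer proteins, small secreted proteins that carry lipids and are abundant in the epidermis of many plants. *OsLTP1.2* (*Os01g0822900*) had 4, 3 and 3 counts in WT leaves but 69, 47 and 73 in *Dap1* leaves, at or near the count floor of the selection in WT leaves. Its log2 fold change of 4.16 (SE 0.37), or 17.9-fold, was the second largest of the 29 members. *OsLTP2.4* (*Os05g0550300*) had an FPKM of 1.94, 2.09 and 1.36 in WT compared with 8.02, 8.47 and 8.28 in *Dap1*, with a log2 fold change of 2.20 (SE 0.22).

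*OsLTP1.13* (*Os11g0116200*) and *Os11g0115350* were abundant already in WT. The FPKM of *OsLTP1.13* was 110.90, 116.32 and 122.80 across WT replicates and 252.12, 251.07 and 247.01 across *Dap1* replicates. That of *Os11g0115350* was 32.58, 34.56 and 31.09 in WT leaves but 73.60, 69.04 and 70.41 in *Dap1* leaves. Their log2 fold changes were close, at 1.09 (SE 0.036) and 1.12 (SE 0.057). By their identifiers both lie near each other on chromosome 11, with no other listed gene between. Lipid transfer protein genes are a family of similar copies among which reads can be split, so the values of single copies are uncertain. Of the 4 lipid transfer protein genes, the scarce ones in WT thus had the larger factors, and *OsLTP1.13* had the largest gain in FPKM.

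*Os03g0710700* carries GO terms for moving ceramide 1-phosphate, a sphingolipid, between membranes. It had 55, 62 and 54 counts in WT compared with 376, 387 and 374 in *Dap1*, a log2 fold change of 2.70 (SE 0.13). *Os02g0612900* is similar to the temperature stress-induced lipocalins, barrel-shaped proteins that bind small lipophilic molecules. Its FPKM was 7.80, 8.20 and 6.68 across WT replicates and 33.26, 34.89 and 33.16 across *Dap1* replicates, and its log2 fold change was 2.16 (SE 0.090).

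*BARD1* (*Os05g0486600*) entered through a GO term for restraint of fatty acid synthesis. Its other terms include DNA repair and ubiquitination, the known role of the protein of this name in animals and *Arabidopsis*. The rest concern histone acetylation, transcription and cell cycle arrest. It had 25, 13 and 12 counts in WT leaves but 1, 8 and 2 in *Dap1* leaves, a log2 fold change of -2.17 (SE 0.56). Without *Dap1* replicate 2, the highest of its group, it was -3.38, and the other libraries left out in turn gave -1.77 to -2.36.

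The count rule left out 1 lipid-annotated gene, *OsPOP2* (*Os01g0612500*), a phospholipase or carboxylesterase gene with 2, 2 and 3 counts in WT compared with 6, 13 and 12 in *Dap1*, at least 2.90-fold higher when set against 3 counts per WT library. Just inside the rule were *OsLTP1.2*, *Os03g0423300*, *Os08g0401500* and *Os01g0666000*, each with at most 4 counts in its lower group. Of the 7 lipid-annotated genes left out, 5 were called higher and 2 lower, with a median log2 fold change of 1.15. They included *OsINO1*, an inositol phosphate synthase gene, with a mean FPKM of 430.5 ± 4.15 in WT and 1106 ± 5.68 in *Dap1* (SD, n = 3). Among 9 further genes with a lipid word in the description but no lipid annotation, 6 were called higher and 3 lower, with a median of 1.31. The largest rises there were those of the neighbouring GDSL lipase genes *Os01g0651300* and *Os01g0651400*, at 1.85 and 1.82, and the largest falls those of *OsLTPd4* and *Os03g0250400*, at -1.89 and -1.58. Both genes that fell are described as plant lipid transfer protein domain genes, whereas *OsLLA1* and *OsLTPG13*, with the same domain, were higher at 1.03 and 1.31.

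Apart from the annotation that chose them, the members shared little. By identifier they lay on 10 chromosomes, with 5 on chromosome 3 and 4 each on chromosomes 1 and 2. A membrane was given as GO component for 16 of 29 members (55.2%), against 239 of 925 listed genes (25.8%). No component was given for 17.2% of the members and 46.9% of all listed genes, so the shares are not over equally annotated genes. The 16 members in KEGG lipid metabolism had 10 higher and 6 lower genes, and the 13 members known by GO term only had 11 higher and 2 lower genes.

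Heat-response genes moved with the genotype. Response to heat was a GO term of 27 listed genes, of which 26 were called higher, with a median log2 fold change of 4.49, and their summed FPKM was 485 to 495 in the WT libraries and 2652 to 2667 in the *Dap1* libraries. None of the lipid genes carried that term, and the 2 with heat or temperature in the description were *Os07g0481200* and *Os02g0612900*. Without both, 19 lipid genes were called higher and 8 lower, with a median of 1.36. Over all listed genes 56.9% were called higher and 41.7% lower, with a median of 1.15. As 98.6% of listed genes were called in either direction, the calls kept say nothing particular about the members. The part of heat in the lipid genes was not tested. As to tissue, the leaf list, chosen by symbol or KEGG photosynthesis pathway, had 4 listed genes, all higher, with a summed FPKM of 98.3 to 102 in the WT libraries and 258 to 267 in the *Dap1* libraries. That sum was nearly all *PSBS2*, a photosystem II gene with a mean FPKM of 99.0 in WT and 255 in *Dap1*. The other 3 genes had a mean FPKM under 1 in WT, and 1 of them, *Os01g0860601*, is described as similar to a root ferredoxin. The panicle list had 1 listed gene, *OsMADS34* (symbol PAP2), with 50, 24 and 25 counts across WT replicates and 6, 5 and 7 across *Dap1* replicates. The only epidermis marker listed was the member *OsGL1-2*, so the epidermal share of the samples was not tested. A marker that is not listed has no value here, since the table holds called genes only.

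The number called higher depended on how the libraries were scaled. The main sizes came from the ratio of count to FPKM, which refers to all mapped fragments. Factors computed over the listed genes alone shifted the log2 fold changes of all genes by a median of -0.45 (TMM) and -0.85 (DESeq2). Such factors take most genes as unchanged, but every listed gene was selected as changed, 532 of them higher and 393 lower. The calls lost with them therefore cannot decide which scaling is right. No member changed direction, and the genes that lost their call, 9 with TMM and 11 with DESeq2's factors, were all among the 21 higher ones. A downward shift moves only the higher genes towards the threshold, so the calls kept by the lower ones were not a test of them. With DESeq2's factors the 10 genes still called higher were 3 of 4 of fatty acid synthesis, 1 of 5 of elongation, wax and cutin, 0 of 3 of glycerolipid synthesis, 2 of 3 of hydrolysis and 4 of 6 of lipid transfer. Over all listed genes 27.1% were called higher in that setting, and differences between roles of so few genes were not tested. With the same factors *FATB1* and *OsLTP1.13* came to log2 fold changes of 0.18 and 0.23.

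**Figure D4:**
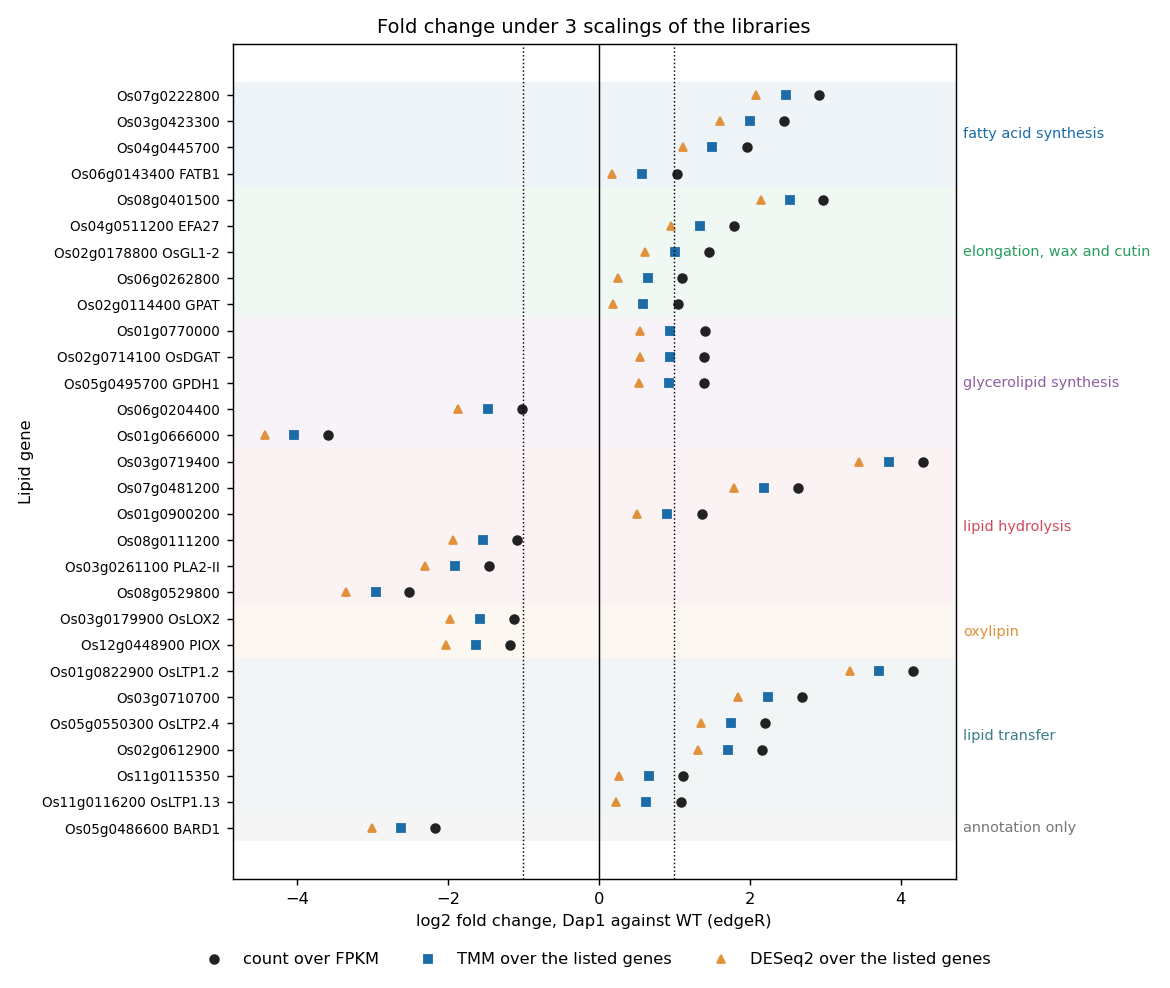
Log2 fold change of *Dap1* against WT (horizontal axis, edgeR) for the 29 lipid genes under 3 scalings: count over FPKM (circles), TMM factors (squares) and DESeq2 size factors (triangles) over the listed genes. Dotted lines mark the threshold of 1 in each direction. Each gene moves to the left by a similar amount, 21 genes stay above 0 and 8 below it.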

How the data were processed

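The table deposited by the authors holds raw counts of fragments per gene and FPKM for 6 libraries. To make them, the authors used Fastp to filter reads, Bowtie 2 to take out rRNA, HISAT 2 to align to Nipponbare, and Stringtie and RSEM to assemble and quantify transcripts. Versions, genome build, annotation release and use of the strand are not given in the sources used here. The listed genes held 244181 to 314019 counts in WT libraries and 601642 to 666483 in *Dap1* libraries. Whole library totals are unknown. The authors' fold changes, p-values and means were not used.

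Relative library sizes were medians of count over FPKM across the 258 genes that reached an FPKM of 2 in all libraries. Counts of all 925 genes entered edgeR 4.0.16 (glmQLFit, glmQLFTest; R 4.3.3) with no low-count filter and Benjamini-Hochberg adjustment. Each SE was derived from the F statistic, as absolute log2 fold change over its square root. The fit was also run on simulated data in which 200 of 925 genes were changed. All listed genes were selected as changed, so that run cannot decide which scaling is right or whether single calls hold. DESeq2 1.42.0 and limma 3.58.1 served as alternatives. Where a floor was needed, it was 3 counts in the library giving the largest scaled value, and it covers counting error only. Members, roles and lists were chosen with earlier results of these data known. All members are named, with values in each library. None of the 925 identifiers matched the RefSeq gene table (0 matched), so no coordinates or sequences are given.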

Additional observations from a re-analysis of the deposited data

How the results depend on the processing

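The direction of all 29 genes was kept under the 14 alternatives tried for single genes, as far as each gene entered the fit. The limits are the selection of the table, 3 libraries per genotype, and low counts. Only 1 member had a mean count under 10, but that mean includes the higher group. In the lower group, *OsLTP1.2*, *Os03g0423300*, *Os08g0401500* and *Os01g0666000* had at most 4 counts in any library. There the highest count was 5 for *Os08g0529800*, 8 for *BARD1*, 9 for *EFA27* and 10 for *Os07g0222800*. With the TMM factors 12 genes were called higher, with DESeq2's size factors 10, and with limma on log2(FPKM + 1), which understates changes at low FPKM, 12 higher and 1 lower. Of all 925 listed genes, 342, 251 and 276 were called higher and 393, 393 and 118 lower in these settings. The median log2 fold change was 0.93 (TMM), 0.54 (DESeq2's size factors), 0.85 (limma with 1 added) and 1.34 (limma with 0.1 added). Over all listed genes it was 0.70, 0.30 and 0.52 in the first 3 of these. Among the members in KEGG lipid metabolism alone, 10 were called higher and the median was 1.07. With the excluded KEGG classes put back the median was 1.36, and it was 1.36 too without the 2 genes named for heat or temperature, an alternative chosen after seeing the data. With each library left out in turn, 20 to 21 genes were called higher and 7 to 8 lower, and the median ran from 1.30 to 1.43. In total 25 genes kept their call without each library in turn, and *FATB1*, *GPAT*, *Os06g0204400* and *PIOX* lost it at least once. The Wald test of DESeq2, the sizes from an FPKM of at least 10 and limma with 0.1 added changed no member's call. A minimum mean count of 10 removed *Os08g0401500* and changed no call of the other 28 members. The replicate block left 21 genes called higher and 8 lower. In the main fit 98.6% of all listed genes were called, and their share in these last settings and without single libraries is not given. Calls kept there thus say nothing particular about the members. Deviations of same-numbered libraries from their group means correlated at 0.0797, -0.0429 and 0.0528, and not every library correlated best with its own number. With 3 libraries per genotype, such small values cannot decide whether the numbers pair the samples.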
